A study of Mus musculus with 6 samples.

Results

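Claudins are the membrane proteins that form the strands of epithelial tight junctions, and 10 claudin genes (Cldn1, Cldn2, Cldn3, Cldn4, Cldn6, Cldn7, Cldn10, Cldn12, Cldn18 and Cldn23) were followed across 3 groups of mouse pancreas. They were taken by gene symbol from the 22556 genes listed for every mouse, and all 10 were measured. The 10 were chosen with their values in these mice already known, so their levels and differences are given as a description, with no p-value. All mice were wild type C57BL/6 at postnatal week 8. Saline mice (n = 2) received saline in place of caerulein. AP mice (n = 2) received caerulein without polyI:C, and polyI:C+AP mice (n = 2) received polyI:C before caerulein. In the authors' model, saline was the control injection for polyI:C. Caerulein is a cholecystokinin analogue whose repeated injection overstimulates the acinar cells and gives acute pancreatitis (AP) within a day, and polyI:C is a synthetic double-stranded RNA that activates Toll-like receptor 3. Whole pancreas was sequenced, in a single lane for all 6 mice. No group received polyI:C alone, so an effect of polyI:C outside pancreatitis cannot be told apart here. The labels call the 2 samples of a group separate and say no more, so the spread between them may be partly technical.

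Claudins of neighbouring cells pair in the narrow space between them and decide which ions and small solutes pass. Some, such as Cldn1 and Cldn3, tighten the seal, while others, such as Cldn2, Cldn10 and Cldn15, form paracellular channels for selected ions. Inside the cell most claudins end in a short motif that binds the scaffold proteins ZO-1 and ZO-3 (Tjp1 and Tjp3), which tie the strand to actin. In the exocrine pancreas tight junctions close the acinar lumen and the ducts, and so keep the secreted digestive enzymes apart from the tissue behind the epithelium.

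Of the 10 genes, Cldn4 and Cldn3 are neighbours on chromosome 5 (build GRCm38, also called mm10), and they held the highest levels in the injured pancreas. Cldn4 is a gene of 1 exon at chr5:134945119-134946934 on the minus strand, Cldn3 is a gene of 1 exon at chr5:134986214-134987472 on the plus strand, and 39279 bases lie between them. The 250 bases before the transcription start of each are printed first because these genes moved in the same direction. The 2 windows of Cldn10 (chr14:118787908-118875489, plus strand) follow because it was the gene of the 10 with a lower level in AP. Sequences and start sites are RefSeq's (GRCm38.p6), each is written 5′ to 3′ on the strand of its gene, and capitals mark matches to the motifs searched. The windows are chr5:134946935-134947184 for Cldn4, chr5:134985964-134986213 for Cldn3, chr14:118787621-118787870 for the first start of Cldn10 and chr14:118854700-118854949 for its second start.
Cldn4 promoter: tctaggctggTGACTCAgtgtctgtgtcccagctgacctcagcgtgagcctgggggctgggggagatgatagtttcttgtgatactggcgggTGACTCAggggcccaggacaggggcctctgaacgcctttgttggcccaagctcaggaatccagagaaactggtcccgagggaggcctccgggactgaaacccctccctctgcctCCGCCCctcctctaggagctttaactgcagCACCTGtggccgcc
Cldn3 promoter: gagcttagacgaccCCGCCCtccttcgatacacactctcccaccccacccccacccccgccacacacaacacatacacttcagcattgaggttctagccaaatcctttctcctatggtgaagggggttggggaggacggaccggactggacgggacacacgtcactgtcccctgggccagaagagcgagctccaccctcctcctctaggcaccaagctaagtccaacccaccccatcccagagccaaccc
Cldn10 promoter, first start: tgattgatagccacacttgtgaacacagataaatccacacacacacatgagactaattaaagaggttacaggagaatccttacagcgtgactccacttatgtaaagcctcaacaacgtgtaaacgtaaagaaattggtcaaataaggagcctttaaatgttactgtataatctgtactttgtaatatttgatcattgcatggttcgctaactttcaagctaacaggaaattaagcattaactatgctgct
Cldn10 promoter, second start: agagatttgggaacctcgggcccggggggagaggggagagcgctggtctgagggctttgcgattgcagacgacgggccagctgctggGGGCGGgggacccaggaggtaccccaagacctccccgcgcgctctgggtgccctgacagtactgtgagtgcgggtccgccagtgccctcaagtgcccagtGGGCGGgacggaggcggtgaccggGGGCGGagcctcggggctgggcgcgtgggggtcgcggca

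The motifs were searched on both strands, and none of the 4 overlaps another in the printed windows. They were the AP-1 site TGANTCA, the GC box GGGCGG, the TATA box TATAAA and the Snail-type E-box CAGGTG. Over all 32851 RefSeq promoter windows of this length, 6.75% held the AP-1 site, 32.7% the GC box, 12.4% the TATA box and 17.2% the E-box. RefSeq windows were found for 9 of the 10 claudins, with 14 start sites in all. The GC box was matched in 8 of these 14 windows, which belong to 7 of the 9 genes. Overlapping windows of Cldn12 hold the same GC box, which is counted once for each of them. The AP-1 site was matched in 1 of the 14, that of Cldn4, where it stood at 2 places that begin at positions -240 and -158 from the transcription start. The Cldn4 window also held a GC box and an E-box on the other strand, which begin at positions -44 and -14. The Cldn3 window held 1 GC box. The Cldn10 windows differed in base composition, with 36% GC and no match at the first start and 72.4% GC and 3 GC boxes at the second, against a median of 52.4% GC over all windows. The values of Cldn10 below are for the whole gene, so its start sites cannot be told apart. A match describes these letters only, and binding was not measured.

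Values are TPM, the reads of a gene per transcript length, scaled to a total over the listed genes so that genes can be compared. The values of a mouse sum to the same total over all listed genes in every mouse. The depth recovered from the spacing of low TPM values was about 3293760 to 3965117 reads in saline and 6925950 to 10825795 reads in the other 4 mice, so the low claudins were measured less precisely in saline. On the log2 scale the replicates correlated across genes with r of 0.88 in saline, 0.92 in AP and 0.89 in polyI:C+AP, where genes are not independent replicates. One library stood apart. In polyI:C+AP replicate 2 the summed level of the intestinal transcripts Vil1, Fabp2, Cdx1 and Cdx2 was 1271 TPM, against 2.14 to 4.80 TPM in the other 5 mice, and these 4 genes were picked after their values were seen. The intestinal transcription factors Cdx1 and Cdx2 were at 0 in the other 5 mice. Counts and claudin differences that rest on this library are therefore also given with polyI:C+AP replicate 1 alone, where the spread comes from the other groups and the lone mouse is assumed to vary like them. Of the 12 acinar markers listed, 6 were measured, and all 6 were above 0 in every mouse. Their summed level was 13565 and 13933 TPM in saline, most of it Cuzd1. No value was listed for Cpa1, Cpb1, Cel, Amy2b, Gp2 and Pnliprp1. Genes without a value are outside the total, so every TPM, and each share or fold drawn from it, is relative to the listed genes.

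Cldn4 seals epithelia and lowers their permeability to cations, and of the 10 genes it differed most between groups. Its level was 21.1 and 10.2 TPM in saline, 2035 and 2537 TPM in AP, and 2065 and 2016 TPM in polyI:C+AP. All 4 injured pancreases lay far above both saline pancreases, and the ranges of AP and polyI:C+AP met, since 2065 TPM lies between the AP values. The mean was 15.7 ± 7.72 TPM in saline, 2286 ± 355 TPM in AP and 2041 ± 34.5 TPM in polyI:C+AP (SD, n = 2 each). AP exceeded saline by 7.22 ± 0.30 on the log2(TPM + 0.5) scale (difference ± SE), and the ratio of the means was 146. polyI:C+AP differed from AP by -0.16 ± 0.30 on this scale and from saline by 7.07. By TPM, Cldn4 was the gene of rank 5187 and 8091 in the saline mice and of rank 34 to 44 in the other 4 mice. At the recovered depth, its saline values rest on about 55.9 and 22 reads.

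Cldn3, a sealing claudin and, with Cldn4, a receptor for clostridial enterotoxin, was already abundant in saline. It was at 140.9 and 114.4 TPM in saline, 500 and 507.1 TPM in AP, and 476.1 and 468.5 TPM in polyI:C+AP. Both AP mice were above both saline mice, and both polyI:C+AP mice lay between these groups. The difference on the log2 scale was 1.98 ± 0.12 for AP against saline, -0.09 ± 0.12 for polyI:C+AP against AP, and 1.89 ± 0.12 for polyI:C+AP against saline. The step from saline to AP was thus smaller in Cldn3 than in its neighbour, and the ratio of Cldn4 to Cldn3 went from 0.15 and 0.089 in saline to 4.07 and 5.0 in AP and 4.34 and 4.30 in polyI:C+AP. In the annotation, 40 exon bases (3.18%) of Cldn3 are shared with Wbscr25 on the other strand, and the strand setting of the counting is not stated.

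Cldn7, which lies mostly along the lateral membrane and binds the adhesion protein EpCAM, moved the same way (chr11:69964779-69967885). Its level was 31.5 and 39.2 TPM in saline, 217.9 and 217.4 TPM in AP, and 175.7 and 192.9 TPM in polyI:C+AP. The 3 groups did not overlap, with polyI:C+AP below AP and far above saline. AP exceeded saline by 2.61 ± 0.13 on the log2 scale, a ratio of means of 6.15, and polyI:C+AP differed from AP by -0.24 ± 0.13.

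Cldn6 is known as a claudin of embryonic epithelium, and both polyI:C+AP mice exceeded both AP mice (chr17:23679249-23682446). It was at 11.4 and 7.83 TPM in saline, 45.7 and 40.8 TPM in AP, and 60.3 and 49.5 TPM in polyI:C+AP. No mouse of one group reached into another group. On the log2 scale AP exceeded saline by 2.13 ± 0.22, and polyI:C+AP exceeded AP by 0.34 ± 0.22. Cldn9 lies 137 bases from its end on the other strand, and the ratio of Cldn6 to Cldn9 was 0.55 and 0.21 in saline, 3.42 and 2.08 in AP, and 9.45 and 4.78 in polyI:C+AP. No stretch of 100 exon bases was shared between Cldn6, Cldn9 or any other of the 19 claudins measured, as far as the annotated exons go.

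Cldn12, a claudin without the scaffold-binding end, was at 17.2 and 19.4 TPM in saline, 45.4 and 42.7 TPM in AP, and 37.1 and 29.6 TPM in polyI:C+AP (chr5:5489537-5514958). AP exceeded saline by 1.25 ± 0.15 on the log2 scale. The polyI:C+AP mice lay between the groups, 0.40 below AP and 0.84 above saline on that scale. Cldn23 was at 7.57 and 2.83 TPM in saline, 22.5 and 15.7 TPM in AP, and 10.1 and 18.2 TPM in polyI:C+AP (chr8:35824712-35826559). Its AP mice were above its saline mice by 1.89 ± 0.49 on the log2 scale, at 2.53 without saline replicate 1 and 1.26 without saline replicate 2, while AP and polyI:C+AP overlapped.

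Cldn1, a claudin needed for the skin barrier, was rare in all groups (chr16:26356642-26371841). It was at 0.42 and 0.78 TPM in saline, 1.73 and 2.51 TPM in AP, and 3.29 and 0.28 TPM in polyI:C+AP. These values rest on about 3.0 to 41.7 reads each, and the polyI:C+AP mice held both the highest and the lowest of them. Cldn18, which has a stomach and a lung form, was listed at 0 in both saline mice (chr9:99689461-99717267). It was at 0.96 and 1.52 TPM in AP and at 1.35 and 2.72 TPM in polyI:C+AP. Cldn18 entered the test only through the groups in which it was above 0, so no fold is given for it. By TPM, Cldn1 ranked between 13189 and 18780 of the listed genes over the 6 mice.

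Among the channel-forming claudins, Cldn10 was the only one of the 10 genes that was lower in AP, and Cldn2 was higher. Cldn10, which passes cations or anions depending on its isoform, was at 101.7 and 149.6 TPM in saline, 27.5 and 20.5 TPM in AP, and 40.0 and 51.2 TPM in polyI:C+AP. The 3 groups did not overlap, and polyI:C+AP lay between AP and saline. On the log2 scale AP was below saline by a difference of -2.35 ± 0.24, polyI:C+AP exceeded AP by 0.91 ± 0.24, and polyI:C+AP differed from saline by -1.44 ± 0.24. Cldn2, a cation and water channel of leaky epithelia, was at 0.17 and 3.30 TPM in saline, 9.39 and 13.7 TPM in AP, and 6.62 and 38.8 TPM in polyI:C+AP (chrX:139800828-139811386). The highest Cldn2 value was that of polyI:C+AP replicate 2, the library with the intestinal transcripts. polyI:C+AP exceeded saline by 3.39 ± 0.99 on the log2 scale with both mice, and by 2.16 with replicate 1 alone. Saline moved it as far, to 2.14 without saline replicate 1 and 4.65 without saline replicate 2. The difference of AP from saline was 2.89 ± 0.99, at 1.64 and 4.15 without these saline mice. Against AP the difference was 0.50 with both mice and -0.73 with replicate 1 alone.

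**Figure D1:**
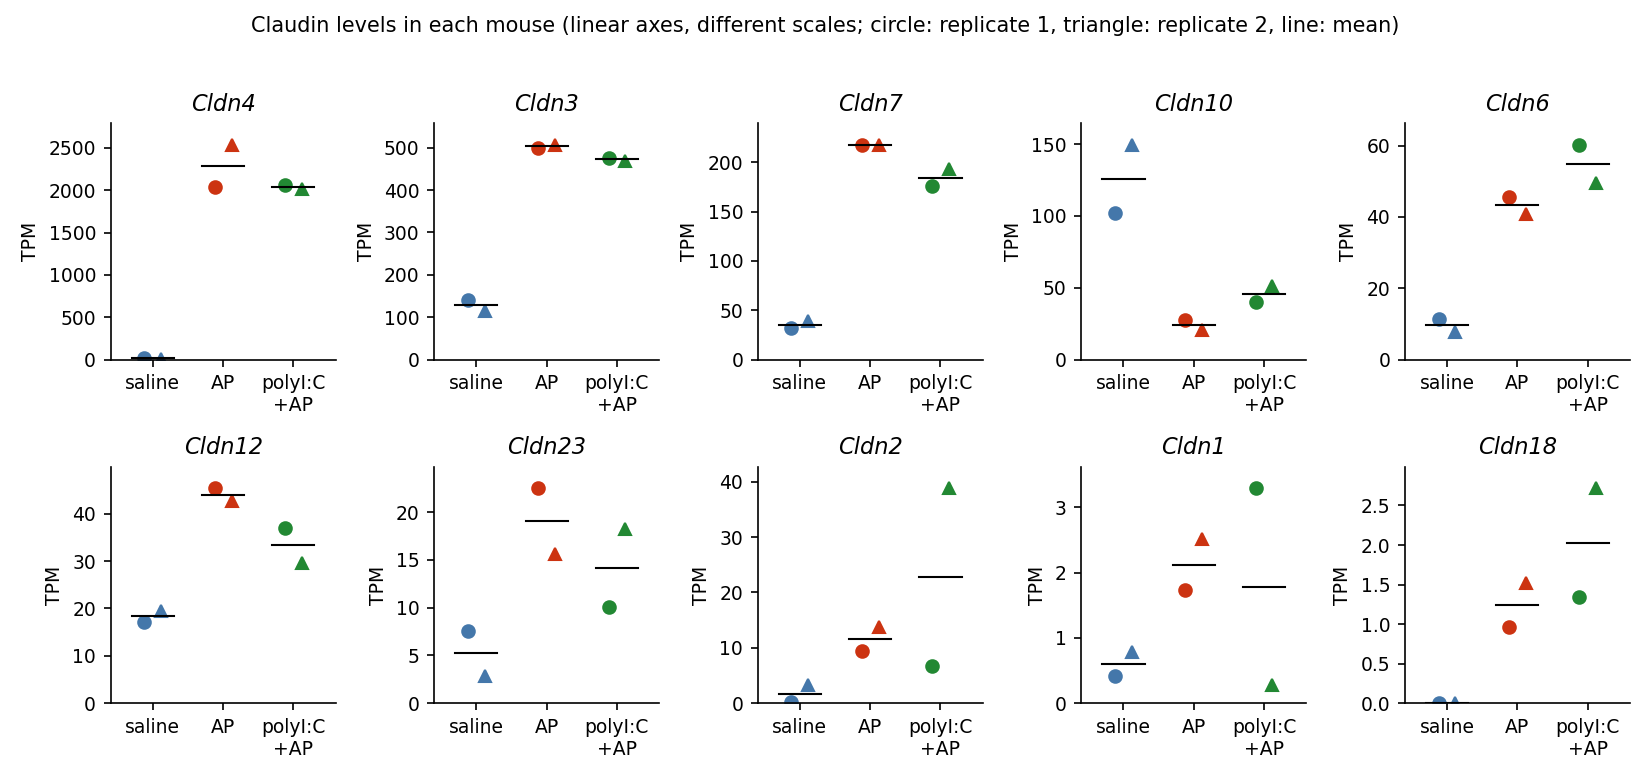
TPM of each of the 10 claudins (one panel a gene, vertical axis in TPM with its own linear scale) in the saline, AP and polyI:C+AP mice. Circles are replicate 1, triangles are replicate 2 and lines are group means. Cldn4 lies at 10.2 and 21.1 TPM in saline and at 2016 to 2537 TPM in the other groups, and Cldn10 runs the other way.

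Among the 10 genes, the highest means in saline were those of Cldn3 and Cldn10, at 128 ± 18.7 and 126 ± 33.8 TPM, which did not differ beyond their spread. Cldn7 followed at 35.4 ± 5.46 TPM. Cldn12 at 18.3 ± 1.55 TPM overlapped with Cldn4, and Cldn4 overlapped with Cldn6 at 9.60 ± 2.5 TPM. Cldn23, Cldn2, Cldn1 and Cldn18 came last, and of these Cldn23 and Cldn2 overlapped, as did Cldn2 and Cldn1. In AP the order was Cldn4, Cldn3, Cldn7, Cldn12, Cldn6, Cldn10, Cldn23, Cldn2, Cldn1 and Cldn18. Of these neighbours, Cldn12 and Cldn6 overlapped, as did Cldn10 and Cldn23. In polyI:C+AP the first 3 were the same, and Cldn6, at 54.9 ± 7.61 TPM, overlapped with Cldn10, at 45.6 ± 7.89 TPM.

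The make-up of the claudin transcripts differed accordingly. The 19 claudins measured summed to 516 and 540 TPM in saline, 2997 and 3494 TPM in AP, and 2986 and 3013 TPM in polyI:C+AP. Cldn4 was 4.10% and 1.89% of this sum in saline, 67.9% and 72.6% in AP, and 69.2% and 66.9% in polyI:C+AP. Cldn10 was 19.7% and 27.7% of it in saline and 0.92% and 0.59% in AP. Without Cldn4, the other 9 genes summed to 311 and 337 TPM in saline, 871 and 862 TPM in AP, and 811 and 852 TPM in polyI:C+AP. The higher sum was therefore not carried by Cldn4 alone. The 9 claudins outside the 10 summed to 184 and 193 TPM in saline, 91.2 and 94.5 TPM in AP, and 111 and 145 TPM in polyI:C+AP.

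**Figure D2:**
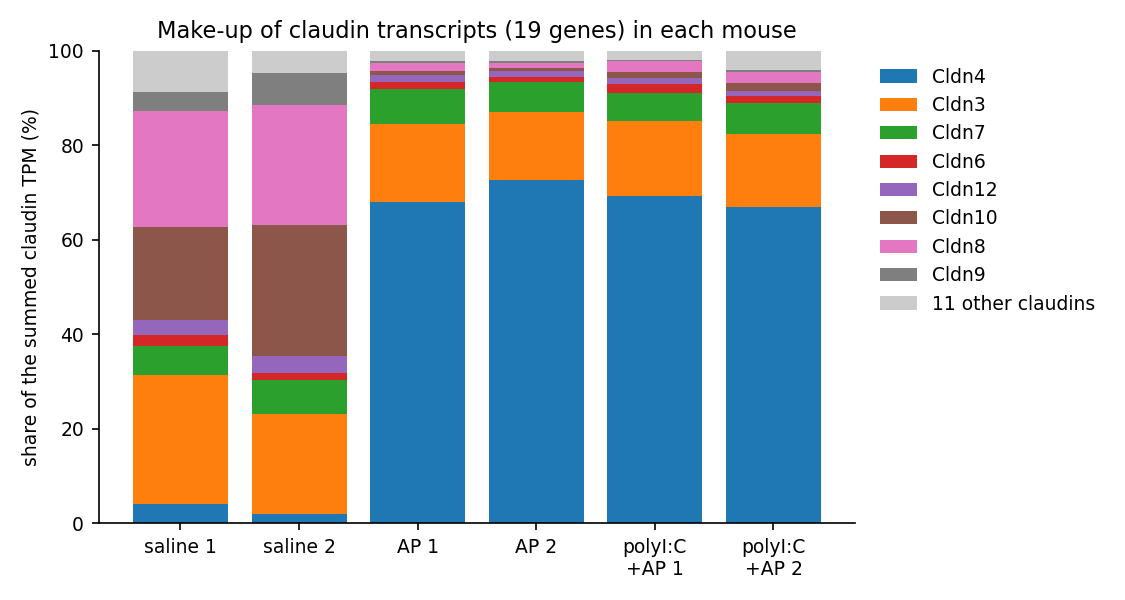
Share of each claudin in the summed TPM of the 19 claudins measured (vertical axis, percent from 0 to 100) in each of the 6 mice. Blue, the share of Cldn4, is 1.89% to 4.10% in the saline bars and 66.9% to 72.6% in the other 4 bars, where the shares of Cldn10 and Cldn8 shrink.

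Read as calls of the fit over all 16814 genes that averaged 1 TPM or more (adjusted p of at most 0.05 with limma and a fold of at least 2), 6 claudins were past the threshold as higher in AP than in saline. They were Cldn3, Cldn4, Cldn6, Cldn7, Cldn12 and Cldn23. Cldn1 and Cldn18 averaged under 1 TPM in saline and entered the fit only through the injured groups, so they are not counted here, which leaves 8 of the 10. Of all genes tested, 18.2% were past it in that direction. Cldn10 was past it as lower, which 4.03% of all genes were, and Cldn2 was not past it. Since the 10 genes were chosen on these values, nothing is read from the excess over the background. In 7 of these 8 both AP mice were above both saline mice, as in 52.6% of all genes, and in Cldn10 both were below, as in 16.4% of all genes. The differences of the 8 ran from -2.35 to 7.22 on the log2 scale, and the median over all genes tested was 0.45.

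Median-of-ratios scaling, which places the median gene near 0 by construction, changed the balance of calls. AP was above saline in 3053 and below it in 677 of the genes past the threshold (81.8% higher) with TPM as deposited, and in 1513 and 1267 (54.4% higher) after it, with the median of all genes at 0.04. Against saline, polyI:C+AP had 2838 higher and 500 lower (85.0% higher) with TPM as deposited and 1281 and 1016 (55.8% higher) after that scaling. The 10 claudins kept their direction against saline under it. In AP against saline, Cldn4 was then at 6.78, Cldn3 at 1.53, Cldn7 at 2.17, Cldn6 at 1.70, Cldn12 at 0.80 and Cldn10 at -2.80 on the log2 scale. Cldn12 no longer reached a fold of 2, and 4 (Cldn3, Cldn4, Cldn6 and Cldn7) were past the threshold as higher and Cldn10 as lower, beside 9% and 7.54% of all genes.

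Between polyI:C+AP and AP, 0 of the 10 claudins were past the threshold with limma, against 0.845% of all genes in either direction. At an unadjusted p under 0.05 there were 1 higher and 1 lower, and limma-voom on the estimated reads called 0. Without polyI:C+AP replicate 2 the count was 0 of all 16589 genes tested (0%), with 1475 genes at an unadjusted p under 0.05 and 259 called by voom. With that library, 2 of the 10 had both polyI:C+AP mice above both AP mice (Cldn6 and Cldn10), as in 27.7% of all genes, and 3 had both below (Cldn3, Cldn7 and Cldn12), as in 22.1%. The median difference of the 10 was -0.12 on the log2 scale, against 0.04 over all genes. With replicate 1 alone the log2 difference from AP was -0.14 for Cldn4, -0.08 for Cldn3, -0.31 for Cldn7, 0.48 for Cldn6, -0.24 for Cldn12, -0.86 for Cldn23 and 0.74 for Cldn10, so these genes kept their direction. Cldn1 turned from -0.59 to 0.55 and Cldn2 from 0.50 to -0.73. A difference that misses the threshold with 2 mice a group does not show that the levels were alike.

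Between polyI:C+AP and saline, 5 of the same 8 were past the threshold as higher (Cldn2, Cldn3, Cldn4, Cldn6 and Cldn7), beside 16.9% of all genes, and Cldn10 was past it as lower, beside 2.97% of all genes. With replicate 1 alone, Cldn3, Cldn4, Cldn6, Cldn7 and Cldn12 were past it as higher and Cldn10 as lower, beside 13.3% and 2.29% of all genes tested. Cldn2 was then not past it, and Cldn12 was past it at a log2 difference of 1.00. The other differences were 7.09 for Cldn4, 1.90 for Cldn3, 2.61 for Cldn6, 1.03 for Cldn23 and -1.61 for Cldn10. The comparisons of AP and of polyI:C+AP with saline share the saline mice, so their likeness is no independent result. With both mice Cldn12 was at 0.84 ± 0.15 and Cldn23 at 1.44 ± 0.49 on the log2 scale, and neither was past the threshold.

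**Figure D3:**
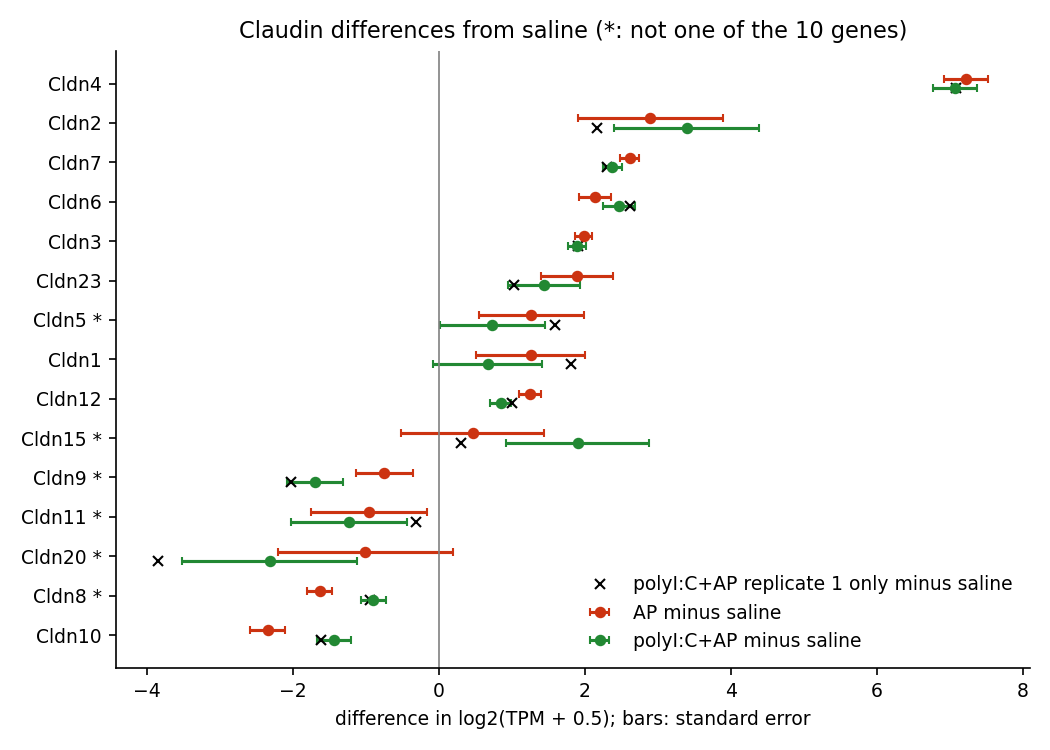
Difference from saline in log2(TPM + 0.5) (horizontal axis, bars are standard errors) for AP in red and polyI:C+AP in green, with crosses for polyI:C+AP replicate 1 alone. Stars mark claudins outside the 10 genes, and Cldn18 is left out because saline is at 0. Cldn4 lies near 7 in both groups, and Cldn10 and Cldn8 lie below 0 in both.

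Of the claudins outside the 10, 14 were listed, 9 were measured and 6 averaged 1 TPM or more. Cldn8, which partners with Cldn4 in the kidney collecting duct, fell in AP and, like Cldn10, was lowest there. It was at 126 and 138 TPM in saline, 50.1 and 35.5 TPM in AP, and 68.5 and 72.2 TPM in polyI:C+AP. AP differed from saline by -1.63 ± 0.17 on the log2 scale (adjusted p = 6.2e-04, limma). polyI:C+AP exceeded AP by 0.73 (adjusted p = 0.118, limma), and polyI:C+AP against saline was at -0.90 (adjusted p = 0.00664, limma), under a fold of 2. With polyI:C+AP replicate 1 alone these were 0.69 (adjusted p = 0.52, limma) and -0.94 (adjusted p = 0.0508, limma). The ratio of Cldn10 to Cldn8 was 0.80 and 1.09 in saline, 0.55 and 0.58 in AP, and 0.58 and 0.71 in polyI:C+AP.

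Cldn9, the neighbour of Cldn6, was at 20.5 and 37.0 TPM in saline, 13.4 and 19.6 TPM in AP, and 6.38 and 10.4 TPM in polyI:C+AP. It fell in polyI:C+AP against saline by a log2 difference of -1.70 ± 0.39 (adjusted p = 0.0138, limma), at -2.03 without replicate 2 (adjusted p = 0.0425, limma). The call was lost without saline replicate 2 and without AP replicate 1. AP against saline was at -0.75 (adjusted p = 0.174, limma). Cldn15, a cation channel of the intestine, was at 50.5 TPM in polyI:C+AP replicate 2 and at 2.39 to 6.89 TPM in the other 5 mice. Cldn5, the claudin of endothelium, ran from 4.77 to 29.8 TPM. Cldn11, a claudin of myelin and testis, was at 0.32 to 4.5 TPM, and Cldn20 was at 0 to 16.6 TPM. None of Cldn5, Cldn11, Cldn15 and Cldn20 was past the threshold in any of the 3 comparisons.

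**Figure D4:**
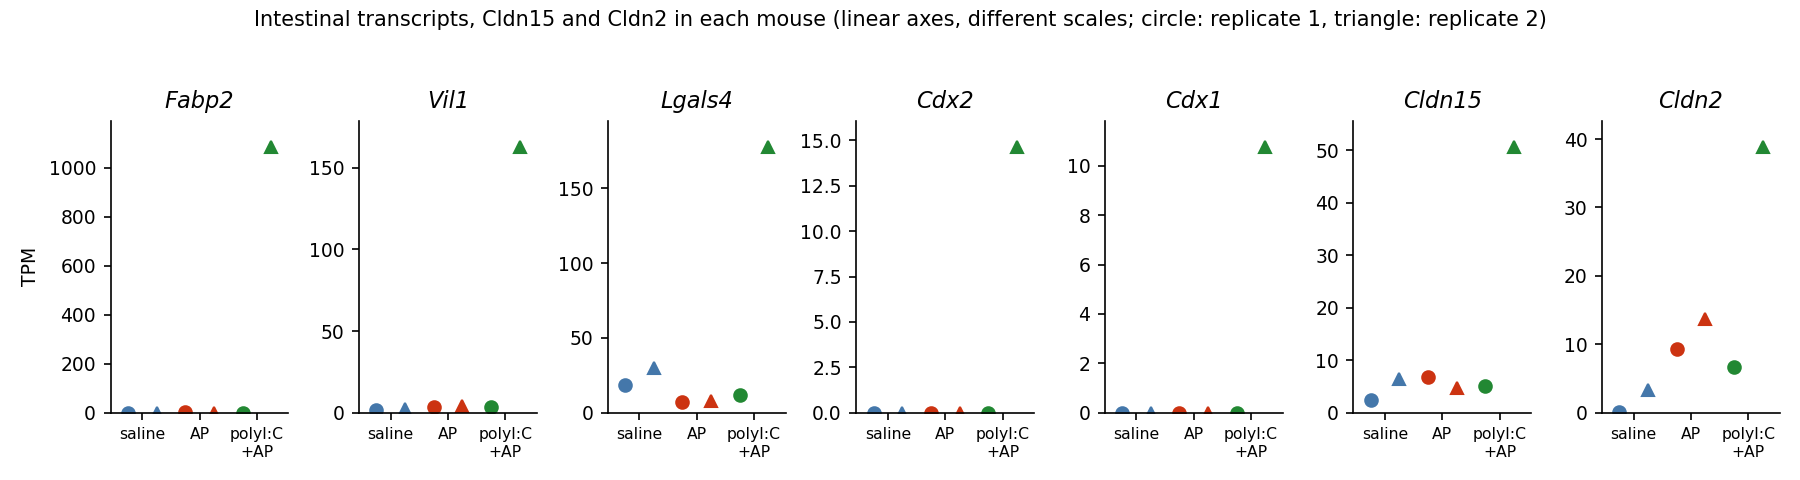
TPM of 5 intestinal transcripts and of Cldn15 and Cldn2 in each mouse (vertical axis in TPM, with its own linear scale in each panel). Circles are replicate 1 and triangles are replicate 2. In every panel polyI:C+AP replicate 2 is highest, at 1083 TPM for Fabp2, 50.5 TPM for Cldn15 and 38.8 TPM for Cldn2.

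Claudins are mostly epithelial genes, with exceptions such as Cldn5, so markers of the pancreatic cell types were read in the same mice. In whole tissue, fewer cells of a type and less RNA per cell cannot be told apart. The 8 duct markers summed to 413 and 330 TPM in saline, 1772 and 1676 TPM in AP, and 1514 and 1508 TPM in polyI:C+AP, with none at 0. Of these, 4 (Krt7, Krt19, Cftr and Spp1) rose in AP against saline, beside 18.2% of all genes, and 0 passed the threshold between polyI:C+AP and AP with limma, where 3 had an unadjusted p under 0.05 and voom called 0. Krt19, a keratin of duct cells, was at 51.2 and 62.4 TPM in saline, 1016 and 1041 TPM in AP, and 767 and 769 TPM in polyI:C+AP. The sum of the 6 acinar markers went from 13565 and 13933 TPM in saline to 4190 and 3503 TPM in AP and 4961 and 4469 TPM in polyI:C+AP. Most of this sum was Cuzd1, at 12187 and 12622 TPM in saline, 3704 and 3045 TPM in AP, and 3853 and 3269 TPM in polyI:C+AP. Of the 6, 4 fell in AP against saline, beside 4.03% of all genes, while Ptf1a and Nr5a2 were at 0.20 and 0.16 on the log2 scale. In polyI:C+AP against AP 3 rose, beside 0.845% of all genes in either direction. These 3 were Bhlha15, Cckar and Rbpjl, at 1.73, 1.66 and 1.08 on the log2 scale with both mice and 1.68, 1.56 and 1.1 with replicate 1 alone, a fit in which no gene of the table was past the threshold. The 10 leukocyte markers summed to 519 and 353 TPM in saline, 2073 and 2335 TPM in AP, and 277 and 183 TPM in polyI:C+AP, with S100a8 at 0 in saline replicate 2 and Cd3e at 0 in AP replicate 1 and polyI:C+AP replicate 1. Most of each sum was Lyz2, at 444 and 307 TPM in saline, 1891 and 2118 TPM in AP, and 203 and 119 TPM in polyI:C+AP. Of the 9 tested, 6 rose in AP against saline, beside 18.2% of all genes. They include Itgam, which averaged 0.80 TPM in saline, under the 1 TPM asked of the mean over all mice. In polyI:C+AP against AP 3 fell, beside 0.845% of all genes in either direction. The 3 that fell were Lyz2, Itgam and Csf1r, at -3.68, -2.36 and -1.97 with both mice and -3.30, -2.34 and -1.91 with replicate 1 alone. The other 6 were not past the threshold, and the median of the 9 was -1.43. S100a8 did not fall, at 6.18 and 9.40 TPM in AP and 11.6 and 6.16 TPM in polyI:C+AP, a log2 difference of 0.14. Endothelial markers (8 genes) summed to 78.4 to 125 TPM and mesothelial markers (5 genes) to 37.0 to 105 TPM over the 6 mice, and 0 of either list were past the threshold in any comparison with limma, with 1 endothelial gene at an unadjusted p under 0.05 in each comparison with saline and 0 called by voom. Of 10 stomach and intestine markers measured, Muc5ac and Atp4b, both of the stomach, were at 0 to 0.45 TPM in every mouse, and Atp4a was at 0.54 to 1.96 TPM. Tff1 was at 1.43 and 0 TPM in saline, at 0 in both AP mice, and at 3.19 and 1.27 TPM in polyI:C+AP. Lgals4 was at 18.5 and 30.0 TPM in saline, 7.04 and 7.79 TPM in AP, and 11.8 and 177 TPM in polyI:C+AP. Tff2, a trefoil peptide of the stomach that was also abundant in the saline pancreas, was at 34940 and 36643 TPM in saline, 8229 and 7063 TPM in AP, and 3902 and 3388 TPM in polyI:C+AP, and fell in each of the 3 comparisons. The part of these cell types in the claudin levels was not tested.

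The other proteins of the tight junction were read from a list of 27 genes. Against saline, 12 of the 27 rose in AP and 0 fell, beside 18.2% and 4.03% of all genes, with a median of 0.72 over the list and 0.45 over all genes on the log2 scale. F11r, which encodes the adhesion molecule JAM-A, rose from 53.2 and 56.1 TPM in saline to 327.6 and 331.0 TPM in AP, by 2.58 on the log2 scale (adjusted p = 2.2e-05, limma), and was at 332.0 and 304.0 TPM in polyI:C+AP. Cxadr, a receptor for viruses that sits at the junction, rose by 2.86 (adjusted p = 1.32e-05, limma). Occludin (Ocln), which spans the membrane beside the claudins, rose by 1.59 from 48.4 and 53.0 TPM in saline to 149.1 and 158.9 TPM in AP. Tricellulin (Marveld2), which seals the corners where cells meet, rose by 1.28. The scaffolds Tjp1 and Tjp3 rose by 1.41 and 1.37, the cytoskeletal linker cingulin (Cgn) by 1.19, and Lsr, which recruits tricellulin, by 1.71. After median-of-ratios scaling 5 of the 27 were past the threshold as higher, beside 9% of all genes, among them Cxadr, F11r, Ocln and Lsr, and the median was 0.31. The rises of the partners named here ran from 1.19 to 2.86. They include the largest of the list, and 15 of the 27 were not past the threshold. The claudins past it as higher ran from 1.25 (Cldn12) to 7.22 (Cldn4).

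Between polyI:C+AP and AP, 0 of the 27 were past the threshold with limma, beside 0.845% of all genes in either direction. There were 1 higher and 2 lower at an unadjusted p under 0.05, and voom called 0. Ocln was at -0.44 (adjusted p = 0.104, limma) and Cxadr at -0.43 (adjusted p = 0.0756, limma) on the log2 scale. The median over the list was -0.01. With polyI:C+AP replicate 1 alone Ocln was at -0.49, Cxadr at -0.38 and the median at 0.0032.

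The adherens junction, the desmosome and the proteins around EpCAM were read from a list of 23 genes, 22 of which were tested. Against saline, 14 rose in AP and 0 fell, beside the same shares of all genes, with a median of 1.26. E-cadherin (Cdh1) rose by 3.12 on the log2 scale (adjusted p = 5.48e-05, limma), from 141.6 and 104.3 TPM in saline to 1141 and 990.7 TPM in AP, and was at 705.8 and 705.5 TPM in polyI:C+AP. EpCAM, the partner of Cldn7, rose by 2.90 (adjusted p = 2.16e-05, limma), from 120.2 and 116.8 TPM to 864.2 and 916.3 TPM, and was at 826.5 and 959.1 TPM in polyI:C+AP. Matriptase (St14), a membrane protease that cleaves EpCAM, rose by 3.02, and the adhesion protein Nectin2 rose by 2.08. After median-of-ratios scaling 7 of the 22 were past the threshold as higher, beside 9% of all genes, and the median was 0.81. Between polyI:C+AP and AP, 0 of the 22 were past the threshold with limma, beside 0.845% of all genes in either direction. There were 3 higher and 2 lower at an unadjusted p under 0.05, and voom called 0. Cdh1 was at -0.59 with both mice (adjusted p = 0.152, limma) and at -0.59 with replicate 1 alone.

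**Figure D5:**
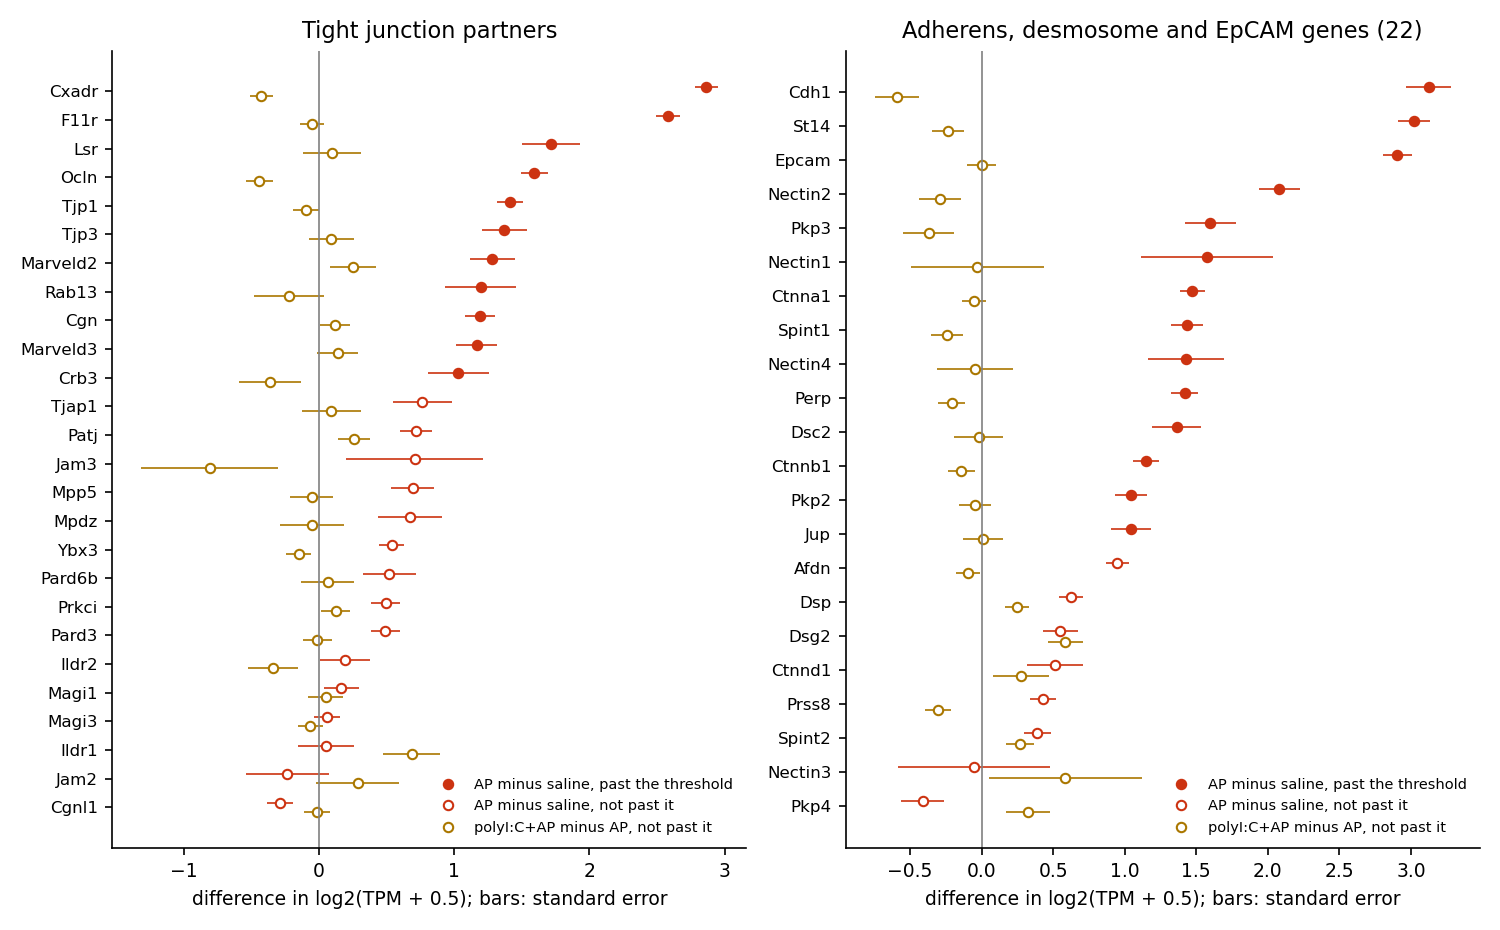
Difference in log2(TPM + 0.5) (horizontal axis, bars are standard errors) for tight junction partners (all tested but 1, which is not drawn) and the 22 adherens, desmosome and EpCAM genes tested. Red is AP against saline, filled where past the threshold, and brown is polyI:C+AP against AP, which is open throughout. The red points reach 2.86 for Cxadr and 3.12 for Cdh1, and the brown points scatter around 0.

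The genes whose 6 values, relative to their saline mean, ran closest to those of Cldn4 were Kel, 4930539E08Rik and Krt20, among 8487 protein-coding genes that averaged 10 TPM or more. Likeness was the Euclidean distance over the 6 log2(TPM + 0.5) values, and it was 2.18 for Kel, 2.54 for 4930539E08Rik and 2.68 for Krt20. These genes were at 0 to 1.75 TPM in saline, so the size of their shift depends on the 0.5 added. 4930539E08Rik was at 147 and 99.6 TPM in AP and lower, at 46.5 and 30.0 TPM, in polyI:C+AP. Krt20, a keratin of the gut epithelium, was at 0.71 and 1.75 TPM in saline, 78.9 and 93.0 TPM in AP, and 124 and 191 TPM in polyI:C+AP. The closest to Cldn10 were Gpt, an aminotransferase, at 0.29, Casp9, an initiator caspase, at 0.47, and Slc16a7, a monocarboxylate transporter, at 0.57. Gpt was at 363 and 409 TPM in saline, 83.8 and 68.6 TPM in AP, and 121 and 160 TPM in polyI:C+AP. These distances rest on 6 mice and are a description.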

How the data were processed

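Pancreas RNA of 6 mice (3 groups, n = 2 each, groups and replicate numbers from the sample labels) was sequenced. Per the labels, libraries were made with a ribosomal RNA depletion kit, a directional kit and a stranded mRNA kit. The authors trimmed reads with Trimmomatic, aligned them with STAR (mm10), assigned them to genes with HTSeq and used DESeq2 for their own gene list. The deposited unit of the authors is TPM, 1 value for each gene in each mouse. How counts became TPM, the tool versions and the strand setting of the counting are not given in the sources used here.

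The design was written for limma because the deposited unit is TPM, not counts. log2(TPM + 0.5) of the 16814 genes averaging 1 TPM or more was fitted with limma 3.58.1 in R 4.3.3, with 1 coefficient per group, all 6 mice and an empirical Bayes prior that follows log2 of mean TPM times exon length. P-values were adjusted by Benjamini-Hochberg over all tested genes, and the threshold was an adjusted p of at most 0.05 with a fold of at least 2. The code was tested on simulated data. Gene coordinates and exon lengths are from GENCODE M21 (GRCm38), in which 22490 of the 22556 identifiers were found.

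Low TPM values times exon length fell within 0.1 of whole multiples of a step in 50.5% to 62.1% of values up to 20 steps, against 17.4% to 18.5% with shuffled lengths. The reads estimated from this step are too inexact for a count test as a main result, and 1 read at the median exon length was worth 0.0958 to 0.266 TPM. They entered a limma-voom alternative. In all, 14 alternatives were run, covering the pseudocount, the filter, the scaling, the prior, a replicate block, voom and leaving out each mouse.

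The members and all gene lists were chosen with earlier results of these data known. Named genes were the 10 claudins, other claudins averaging 1 TPM or more, fixed junction proteins (Ocln, Marveld2, F11r, Tjp1, Tjp3, Cgn, Cdh1, Epcam and St14, with 2 more that are counted in their lists but not reported here by name), the 4 largest rises of each junction list, the 3 closest patterns and the marker lists. Claudins of the list without a value, 5 of the 14 outside the 10, were not analysed here, nor were the 6 acinar markers without one. Protein sequences were not used here.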

Additional observations from a re-analysis of the deposited data

How the results depend on the processing

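The direction of every claudin of the 10 in AP against saline was the same under all alternatives run. Over the 10 genes and 3 comparisons, 348 differences moved by at most the SD of the gene in the fit and 69 by more. The 348 include settings that cannot move a difference, namely the other priors, no filter, the replicate block and leaving out a mouse not compared. The sign turned in polyI:C+AP against AP for Cldn1 (-0.59, with a range of -1.73 to 0.55), Cldn2 (0.50, -0.73 to 1.73) and Cldn4 (-0.16, -0.31 to 0.0039), and in polyI:C+AP against saline for Cldn1 (0.66, -0.48 to 1.80), each under 1 alternative.

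Median-of-ratios scaling lowered the count past the threshold in AP against saline from 8 to 5 of the 10 claudins (Cldn18 counted here and in the counts that follow), from 12 to 5 tight junction partners and from 14 to 7 adherens, desmosome and EpCAM genes. In polyI:C+AP against saline it gave 5 partners in place of 10, 4 adherens, desmosome and EpCAM genes in place of 15, and 2 other claudins in place of 1. Voom gave 7 in place of 15 adherens, desmosome and EpCAM genes and 2 in place of 1 other claudin in that comparison. This scaling moved the median difference from saline over all genes from 0.45 to 0.04 in AP and from 0.48 to 0.04 in polyI:C+AP, and the cause of the voom difference was not tested. Leaving out 1 mouse at a time gave 6 to 7 of the 10 claudins in AP against saline and 5 to 7 in polyI:C+AP against saline, and 0 to 1 other claudins in the latter, with 0 without saline replicate 2 and without AP replicate 1. In polyI:C+AP against AP the count was 0 for the 10 claudins, the other claudins and both junction lists under each of the 14 alternatives; marker lists were not run under all of them.

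Deviations of same-numbered mice from their group means correlated at 0.0075, 0.0351 and -0.0039 across genes, and the labels name no pairing. A replicate block gave 9 of the 10 claudins in AP against saline in place of 8. Low depth in saline limits Cldn1, Cldn2 and Cldn18, whose saline values are at most 3.30 TPM. It also limits Cldn23, at 7.57 and 2.83 TPM in saline, which rest on about 20.4 and 6.2 reads.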
